A study of Mus musculus with 34 samples.

Results

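The S100 genes encode small calcium-binding proteins, and 9 of them were followed here in polycystic mouse kidneys: S100a1, S100a4, S100a6, S100a8, S100a9, S100a10, S100a11, S100a13 and S100g. The members are a list of gene symbols, and all 9 were found among the 23509 genes of every count table. S100 proteins carry paired EF-hand motifs, act mostly as dimers and bind their partners when calcium binding opens a hydrophobic face. Inside the cell they meet annexins, cytoskeletal proteins and ubiquitin ligases, and some are released and bind receptors of innate immunity. In the kidney the family is best known for S100g, the calbindin-D9k of the distal nephron, and for calprotectin, the S100a8 and S100a9 complex of neutrophils and monocytes.

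Whole-kidney polyadenylated RNA was sequenced from 34 mice of the C57BL6 background, killed on postnatal day (P) 28, to ask how inhibition of the microRNA miR-17 changes gene expression in cystic kidneys. Pkd2-KO mice, spelled Pdk2KO in the genotype label, carry floxed Pkd2 alleles deleted by a Cre recombinase under the Pkhd1 promoter, which is active in renal tubules and above all in collecting ducts, so other kidney cells keep the gene. They received RGLS4326, an oligonucleotide that blocks miR-17, at 20 mg per kg subcutaneously on P10, P11, P12 and P19 (n = 11), or the phosphate-buffered saline vehicle at 0 mg per kg on those days (PBS, n = 11). Untreated mice without the transgene (UNT, labelled wildtype, n = 12) were harvested on the same day. The deleted gene was lower in all PBS libraries than in any UNT library, with Pkd2 at 98.0 to 215 CPM (counts per 1000000 reads in genes, scaled between libraries) in PBS, 170 to 237 CPM in RGLS4326 and 220 to 338 CPM in UNT kidneys, so that RGLS4326 libraries overlapped both other groups.

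Each library held 17603122 to 54981992 reads assigned to genes, and total counts over the 34 libraries ran from 2108 for S100a8 to 599778 for S100g. The lowest library counts were 2 for S100a8, 7 for S100a9 and 61 for S100a4, all in UNT kidneys, where counting error is part of the spread of these genes, and 327 or more for the other members. Reads in no gene made up 9.84 to 11.3% of UNT libraries, 5.18 to 8.995% of PBS libraries and 4.94 to 12.0% of RGLS4326 libraries. The numbering in the table names restarts and splits the libraries into 3 sets, each with 3 or 4 mice of every group. The library of PBS replicate 9 stood apart: it was the highest of the 11 PBS libraries for all 9 members, so several values are also given without it. The other PBS mice reached at most 199 CPM for S100a1, 727 CPM for S100a6, 207 CPM for S100a10, 610 CPM for S100a11 and 39.4 CPM for S100a13. When it was left out, the 6 members called lower in RGLS4326 versus PBS were still called by edgeR, with log2 fold changes from -0.24 (S100a10) to -0.70 (S100a6).

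RGLS4326 pairs with the seed of miR-17, so the mature sequence from RefSeq is shown with its seed, bases 2 to 8, in capitals. The mature sequence lies on the plus strand at chr14:115043684-115043706 (GRCm38.p6).
mmu-miR-17-5p: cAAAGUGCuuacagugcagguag
The matching target letters are GCACTTT or CACTTTA, and neither occurred in the longest annotated 3′UTR of any of the 9 members, which were 68 to 506 bases long. Among 19201 genes with an annotated 3′UTR, 19.9% held such a match, and among the 5258 genes whose 3′UTR was no longer than 506 bases, 3.06% did. This search covers these letters in these transcripts only.

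Of the 9 members, 8 lay on chromosome 3 between 90511034 and 93564643 (GRCm38, GENCODE M21), and S100g lay on chromosome X from 162961992 to 162964599 on the minus strand. S100a1 ran on the minus strand from 90511034 to 90514392 and S100a13 on the plus strand from 90514435 to 90524581, so their starts face each other. S100a4, on the plus strand from 90603771 to 90606045, was the member with exons shared with another gene, 302 bases of the protein-coding model Gm42674 on the same strand, and its counts are uncertain to that extent. S100a6 (90612882 to 90624181, plus), S100a8 (90668978 to 90670035, plus), S100a9 (90692632 to 90695721, minus), S100a11 (93520488 to 93526287, plus) and S100a10 (93555080 to 93564643, plus) overlapped no other exon.

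Because S100a8 and S100a9 moved together across kidneys, the promoters of the members were searched on both strands in the RefSeq windows of 250 bases before to 50 bases after the annotated start, which were given for 8 members and not for S100a10. The letters TATAAA occurred in S100a4, S100a8, S100a9 and S100g, against 13.6% of 32851 promoter windows. The windows around the match are shown on the coding strand (GRCm38.p6) with those letters in capitals.
S100a4, chr3:90603727-90603756, plus strand: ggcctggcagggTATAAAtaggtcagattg
S100a8, chr3:90669029-90669058, plus strand: caagctttcctcTATAAAagcagctgacac
S100a9, chr3:90695704-90695733, minus strand: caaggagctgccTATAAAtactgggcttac
S100g, chrX:162964582-162964611, minus strand: gtctgtaaagacTATAAAagagcccctcct
The match began at position -31 in S100a4 and -30 in S100a8, counted from the RefSeq start, and at the start itself (position 0) in S100a9 and S100g. The RefSeq starts of S100a4 (90603770) and S100a8 (90669071) differ from the GENCODE starts given above, and the match in S100a8 lies inside the longer GENCODE gene. These 4 genes include members that rose and one that fell, as given below. The AP-1 letters TGACTCA were present in S100a11 alone of the 8 members (5.20% of all windows), and the CEBP letters TTGCNNAA in S100a9 and S100g (10.8%).

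In cystic kidneys, 7 of the 9 members rose and S100g fell, and after RGLS4326 6 members were lower than with PBS. The 6 treatment calls were lost when the share of reads in no gene entered the fit, and within sets 1 and 3, where edgeR called 0 members (6, 6 and 5 at an unadjusted p under 0.05), as given further on. A gene was called at an adjusted p under 0.05 in a quasi-likelihood test of edgeR fitted to all 34 libraries, with Benjamini-Hochberg adjustment over the 15644 genes that passed the low-count filter, as all 9 members did. In PBS versus UNT, 43.1% of the tested genes were called higher and 38.9% lower, and the ranges of both groups did not overlap for 42.5%, so a call alone sets a member little apart, and the size of its change is given below. The median log2 fold change of the members was 1.34, against 0.04 over all tested genes. RGLS4326 versus PBS called 15.2% of the tested genes higher and 18.4% lower, with no overlap for 0.0639%. Here 0 members rose, 6 fell (S100a1, S100a4, S100a6, S100a10, S100a11 and S100a13), 3 were not called and 0 had separate ranges, with a member median of -0.64 against 0.00 over all tested genes. RGLS4326 versus UNT called 40.8% higher and 36.9% lower, with no overlap for 36.7%, and there 6 members were higher and 2 lower (S100a1 and S100g). Both comparisons with PBS share the same 11 PBS mice, so opposite signs in them are not independent.

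**Figure D1:**
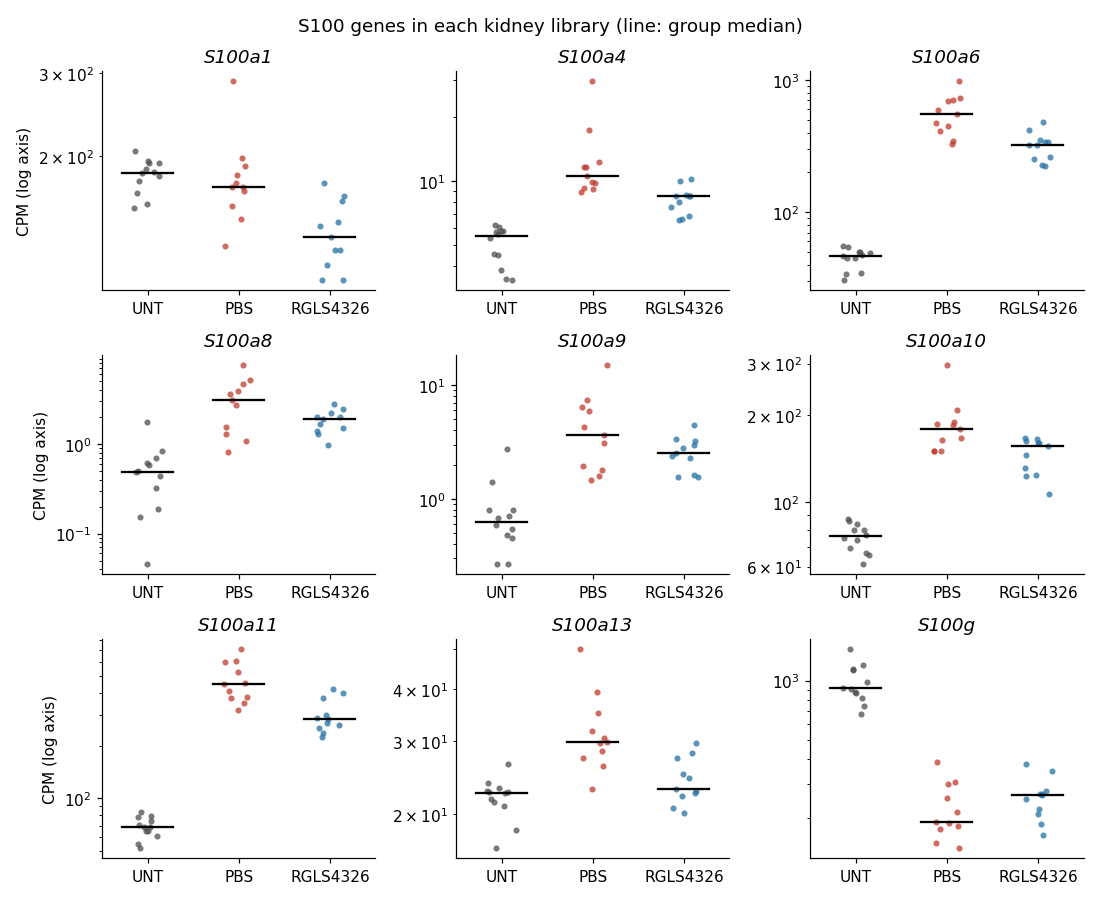
CPM of each of the 9 S100 genes in every kidney library, on a log axis, for UNT (n = 12), PBS (n = 11) and RGLS4326 (n = 11) mice. Points are libraries and lines group medians. S100a6 and S100a11 stood well above UNT in both Pkd2-KO groups, and S100g stood below UNT in both.

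S100a6, S100a11 and S100a10 bind annexins and other membrane and cytoskeletal partners, and they were the most abundant rising members. S100a6, calcyclin, ranged from 30.5 to 55.6 CPM in UNT kidneys (median 46.8), from 327 to 986 CPM in PBS kidneys (median 555) and from 224 to 485 CPM in RGLS4326 kidneys (median 323). All Pkd2-KO libraries were above all UNT libraries, whereas the PBS and RGLS4326 ranges overlapped, with 6 of 11 treated mice below the lowest PBS mouse. The log2 fold change was 3.66 in PBS versus UNT (SE 0.17, edgeR adjusted p = 9.89e-21), a 12.6-fold higher level, and -0.82 in RGLS4326 versus PBS (SE 0.16, edgeR adjusted p = 0.00128), which left S100a6 7.15-fold above UNT.

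S100a11, a partner of annexin A1, spanned 51.9 to 83.4 CPM in UNT (median 68.7), 319 to 709 CPM in PBS (median 452) and 224 to 418 CPM in RGLS4326 kidneys (median 283). The pattern was that of S100a6, with UNT apart and 8 of 11 treated mice below the lowest PBS mouse. Its log2 fold change was 2.78 (SE 0.13) in PBS versus UNT and -0.65 (SE 0.12, edgeR adjusted p = 0.0013) in RGLS4326 versus PBS. S100a10, also named p11, lacks calcium binding and forms a tetramer with annexin A2, and its change was smaller. Values were 61.1 to 87.7 CPM in UNT (median 76.3), 150 to 297 CPM in PBS (median 179) and 106 to 166 CPM in RGLS4326 kidneys (median 156). UNT was again separate from both Pkd2-KO groups, which overlapped. S100a10 rose by 1.28 on the log2 scale (SE 0.09) in PBS versus UNT and was lower by -0.34 (SE 0.10, edgeR adjusted p = 0.00967) with RGLS4326.

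Partners and receptors of S100 proteins moved in both directions in cystic kidneys. Of 15 listed partners and receptors, all of which passed the filter, 10 rose and 5 fell in PBS versus UNT, and 1 rose and 6 fell in RGLS4326 versus PBS. Over all tested genes 43.1% rose and 38.9% fell in the first comparison, and 15.2% and 18.4% in the second. These shares also stand beside the counts of the lists below. The annexins Anxa1 and Anxa2, calcium-dependent membrane binders, had the smallest p in the disease and the treatment comparison. Anxa1 stood at 22.5 to 36.0 CPM in UNT, 158 to 263 CPM in PBS and 124 to 194 CPM in RGLS4326 libraries, with log2 fold changes of 2.84 (SE 0.10) and -0.39 (SE 0.09, edgeR adjusted p = 0.00503). Anxa2 was at 96.6 to 135 CPM, 440 to 816 CPM and 305 to 568 CPM, with log2 fold changes of 2.39 (SE 0.11) and -0.52 (SE 0.10, edgeR adjusted p = 0.00169); its exons share 98 bases with an antisense gene. Both annexins thus moved in the direction of S100a10 and S100a11 in each comparison. Ahnak, a giant scaffold bound by S100a10, rose by 1.72 (SE 0.07) and differed by -0.18 with treatment (SE 0.07, edgeR adjusted p = 0.0447). Cacybp, the calcyclin-binding protein that recruits S100a6, fell in PBS versus UNT, by a log2 fold change of -0.59 (SE 0.12), and was not called with treatment (0.19, SE 0.12).

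S100a8 and S100a9, the subunits of calprotectin, were the least abundant members and varied most between mice. S100a8 ranged from 0.045 to 1.78 CPM in UNT (median 0.493), from 0.817 to 7.63 CPM in PBS (median 3.13) and from 0.985 to 2.82 CPM in RGLS4326 kidneys (median 1.89). S100a9 spanned 0.266 to 2.74 CPM in UNT (median 0.632), 1.46 to 15.1 CPM in PBS (median 3.64) and 1.57 to 4.44 CPM in RGLS4326 kidneys (median 2.52). The groups overlapped for both genes, although 7 of 11 PBS mice lay above the highest UNT mouse. Both rose by 2.53 on the log2 scale in PBS versus UNT (SE 0.36 and 0.37, edgeR adjusted p = 7.59e-08 and 1.12e-07).

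With RGLS4326 the log2 difference from PBS was -0.82 for S100a8 (SE 0.34, edgeR adjusted p = 0.0592) and -0.87 for S100a9 (SE 0.35, edgeR adjusted p = 0.0527), and neither was called. The treated mice lay within the PBS range, and all 11 were below the PBS mean, or 10 of 11 for each gene when PBS replicate 9 was left out of that mean. PBS replicate 9 held the highest values, 7.63 CPM for S100a8 and 15.1 CPM for S100a9, and without it the differences were -0.60 (edgeR adjusted p = 0.167) and -0.50 (edgeR adjusted p = 0.223). In contrast, S100a8 was called in 6 of the 34 fits that each left out 1 library (without PBS replicate 1, 4, 6 or 8, or UNT replicate 9 or 10, edgeR adjusted p = 0.0342 to 0.0446). S100a9 was called in 8 such fits (without PBS replicate 1, 4, 5, 6, 7 or 8, RGLS4326 replicate 7 or UNT replicate 9, edgeR adjusted p = 0.0331 to 0.0474).

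Within the groups S100a8 and S100a9 varied together from mouse to mouse. Across PBS kidneys Pearson's r of log2(CPM + 1) was 0.965 and Spearman's rho 0.973 (permutation p = 1e-05 for each, the smallest these permutations can give, and adjusted p = 0.00054 over 108 relations), and r was 0.961 without the 2 mice farthest from the median of S100a8. In UNT kidneys r was 0.909 and rho 0.902 (permutation p = 0.00014 and 0.00018, adjusted p = 0.00216 and 0.00324), with r at 0.831 without 2 mice chosen in the same way. In RGLS4326 kidneys r was 0.872 and rho 0.909 (permutation p = 0.00066 and 0.00022, adjusted p = 0.00475 and 0.00339), with r at 0.887 without 2 mice. The sets hold 3 or 4 mice of a group, too few for a value within each. With set means removed, an alternative chosen after seeing the data, r was 0.969 in PBS, 0.925 in UNT and 0.861 in RGLS4326 kidneys.

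Calprotectin is carried by neutrophils and monocytes, and markers of both moved with the groups. The 11 neutrophil markers in the tables, of 12 listed, summed to 3.42 to 7.49 CPM in UNT, 10.3 to 40.5 CPM in PBS and 11.4 to 23.7 CPM in RGLS4326 libraries. Of the 7 that passed the filter all rose in PBS versus UNT and 3 fell in RGLS4326 versus PBS (Ltf, Cxcr2 and Mmp9), while Mpo, Elane, Ngp and Camp were too low for the test and none was at 0 in every library of a group. The 10 monocyte and macrophage markers, all tested, summed to 90.9 to 150 CPM in UNT, 713 to 2048 CPM in PBS and 685 to 1449 CPM in RGLS4326 libraries; 10 rose in PBS versus UNT and 4 fell in RGLS4326 versus PBS (Cd68, Ly6c2, Lyz2 and Fcgr1). Their part in the values of S100a8 and S100a9 was not tested, and in whole kidney a change in the number of cells cannot be told apart from a change in RNA per cell. Of the receptors, Tlr4, which binds calprotectin, rose by 1.55 in PBS versus UNT (SE 0.11) and was not called with treatment (0.16, SE 0.11). Its adaptor Myd88 rose by 1.27 (SE 0.07) and differed by -0.28 with treatment (SE 0.07, edgeR adjusted p = 0.00495), with 290 exonic bases shared with Acaa1a on the other strand. Ager, the receptor for advanced glycation end products, had log2 fold changes of -0.33 (SE 0.13, edgeR adjusted p = 0.0197) and 0.30 (SE 0.13, edgeR adjusted p = 0.0797).

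**Figure D2:**
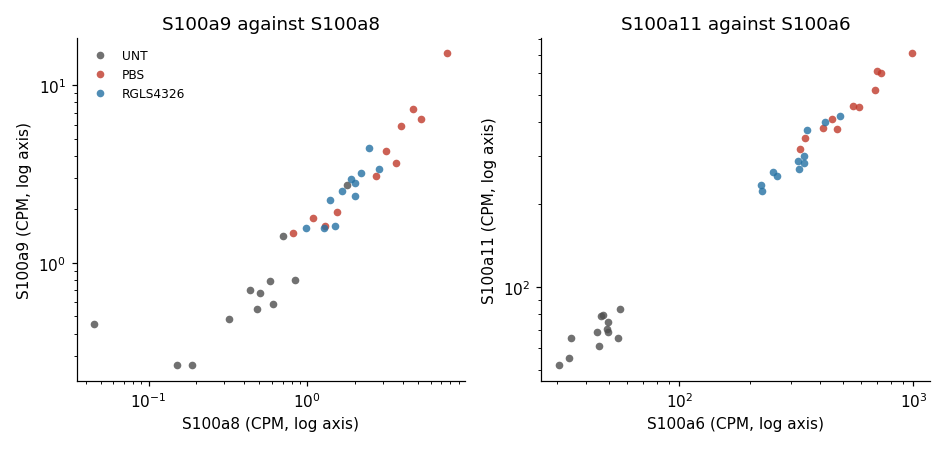
S100a9 against S100a8 and S100a11 against S100a6, in CPM on log axes, 1 point per kidney library, coloured by group. Within PBS kidneys Pearson's r of log2(CPM + 1) was 0.965 for the first pair and 0.973 for the second.

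S100a4, known as fibroblast-specific protein 1, binds non-muscle myosin and is made by fibroblasts and macrophages. S100a4 ranged from 3.42 to 6.22 CPM in UNT (median 5.50), from 8.90 to 29.7 CPM in PBS (median 10.6) and from 6.55 to 10.2 CPM in RGLS4326 kidneys (median 8.48). Every Pkd2-KO mouse lay above every UNT mouse, and 9 of 11 treated mice lay below the lowest PBS mouse. The log2 fold change was 1.34 in PBS versus UNT (SE 0.16) and -0.64 in RGLS4326 versus PBS (SE 0.16, edgeR adjusted p = 0.00543). PBS replicate 9, at 29.7 CPM, carried part of both values, since the next PBS mouse was at 17.5 CPM; without it they were 1.099 and -0.43 (edgeR adjusted p = 0.0138). Myh9, the heavy chain of the myosin bound by S100a4, rose by 1.58 (SE 0.10) and was not called with treatment (-0.14, SE 0.10). The 9 fibroblast and myofibroblast markers summed to 616 to 1334 CPM in UNT, 2984 to 5892 CPM in PBS and 3712 to 5475 CPM in RGLS4326 libraries; 9 rose in PBS versus UNT, and with RGLS4326 1 was higher (Pdgfra) and 1 lower (Vim). What these cells contribute to S100a4 was not tested.

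S100a13, which takes part in the release of FGF1 from cells, and S100a1, known as a regulator of calcium handling in heart muscle, had the smallest log2 fold changes of the 9 members in PBS versus UNT. S100a13 was at 16.6 to 26.4 CPM in UNT (median 22.6), 23.0 to 49.8 CPM in PBS (median 29.9) and 20.1 to 29.6 CPM in RGLS4326 kidneys (median 23.0). All 3 ranges overlapped, with 9 of 11 PBS mice above the highest UNT mouse. It rose by 0.54 in PBS versus UNT (SE 0.09, edgeR adjusted p = 2.63e-06), was lower by -0.40 with RGLS4326 (SE 0.10, edgeR adjusted p = 0.00442), and was not called in RGLS4326 versus UNT (0.14, SE 0.09, edgeR adjusted p = 0.174). Fgf1, its cargo, went the other way, from 106 to 170 CPM in UNT to 40.05 to 66.9 CPM in PBS and 49.6 to 75.0 CPM in RGLS4326 kidneys. The log2 fold change of Fgf1 was -1.22 (SE 0.09) in PBS versus UNT and 0.30 (SE 0.09, edgeR adjusted p = 0.0129) in RGLS4326 versus PBS.

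S100a1 differed from the other S100a members in that it was not called in PBS versus UNT. S100a1 ranged from 155 to 205 CPM in UNT (median 185), from 130 to 289 CPM in PBS (median 172) and from 110 to 176 CPM in RGLS4326 kidneys (median 135). The PBS and UNT ranges overlapped, with the PBS range enclosing that of UNT only through PBS replicate 9 (the other PBS mice reached 199 CPM), and 8 of 11 treated mice lay below the lowest UNT mouse. Its log2 fold change was -0.01 in PBS versus UNT (SE 0.09, edgeR adjusted p = 0.889), -0.39 in RGLS4326 versus PBS (SE 0.09, edgeR adjusted p = 0.00499) and -0.40 in RGLS4326 versus UNT (SE 0.09, edgeR adjusted p = 0.000201). Adding the share of reads in no gene to the fit changed the disease values of this pair of genes, to -0.45 for S100a1 (edgeR adjusted p = 0.000147) and 0.18 for S100a13 (edgeR adjusted p = 0.165). S100a1 and S100a13, which start side by side, were also related from mouse to mouse, with r at 0.952 and rho at 0.891 in PBS kidneys (permutation p = 2e-05 and 0.00042, adjusted p = 0.00054 and 0.00552), and r at 0.832 without 2 mice. In RGLS4326 kidneys r was 0.886 and rho 0.864 (permutation p = 0.00047 and 0.00121, adjusted p = 0.00461 and 0.0119), and r was 0.836 without 2 mice. In UNT kidneys r was 0.847 and rho 0.608 (permutation p = 0.00065 and 0.0394, adjusted p = 0.00475 and 0.112), and r was 0.531 without 2 mice, so the value of r there rests on those mice. With set means removed, an alternative chosen after seeing the data, r was 0.957 in PBS, 0.913 in UNT and 0.823 in RGLS4326 kidneys. Close relations were not confined to genes that start side by side. For S100a6 and S100a13, r was 0.913 and rho 0.945 in PBS kidneys. For S100a1 and S100a11, r was 0.900 and rho 0.918 in RGLS4326 kidneys. Over all pairs the median r was 0.646 in PBS and 0.258 in RGLS4326 kidneys.

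**Figure D3:**
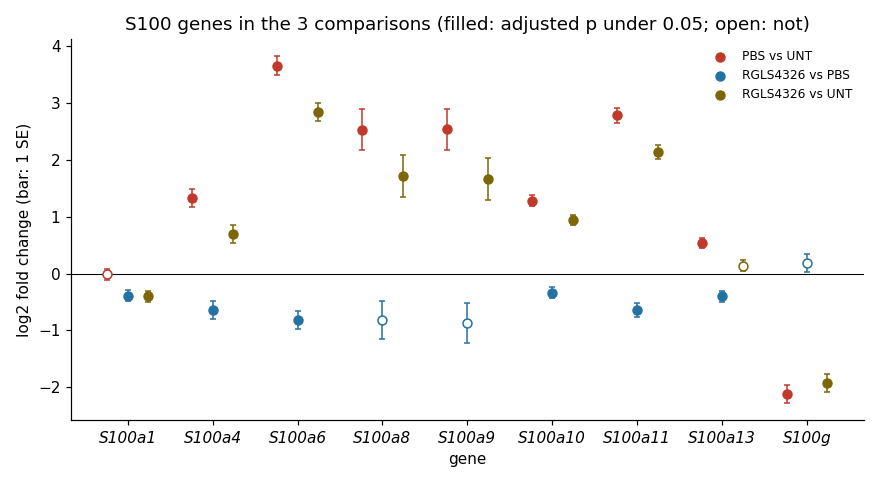
Log2 fold change of the 9 S100 genes in PBS versus UNT, RGLS4326 versus PBS and RGLS4326 versus UNT, with bars of 1 SE. Filled points passed an edgeR adjusted p of 0.05. The 8 S100a members lay below 0 in RGLS4326 versus PBS, of which S100a8 and S100a9 are open, and S100g was the only member below 0 and called in PBS versus UNT.

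S100g, calbindin-D9k, ferries calcium through cells of the distal nephron and is induced by vitamin D, and it was the member that fell in cystic kidneys. It ranged from 674 to 1444 CPM in UNT (median 916), from 141 to 384 CPM in PBS (median 192) and from 164 to 379 CPM in RGLS4326 kidneys (median 262). Every Pkd2-KO mouse lay below every UNT mouse, and the PBS and RGLS4326 ranges overlapped. The top of the PBS range was PBS replicate 9, and the other PBS mice reached 305 CPM, above which 2 of 11 treated mice lay. Relative to UNT, S100g was 4.31-fold lower in PBS kidneys (log2 fold change -2.11, SE 0.16, edgeR adjusted p = 1.42e-14) and 3.80-fold lower in RGLS4326 kidneys (-1.92, SE 0.16). RGLS4326 versus PBS gave 0.18 (SE 0.15, edgeR adjusted p = 0.351), with a 95% interval of -0.12 to 0.49, and 7 of 11 treated mice lay above the PBS mean. Without PBS replicate 9 the difference of S100g was 0.30 (SE 0.15, edgeR adjusted p = 0.119), and 9 of 11 treated mice lay above the PBS mean.

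The make-up of the family differed between the groups. Of all reads assigned to the 9 members, S100g took a median of 69.6% in UNT, 13.6% in PBS and 22.4% in RGLS4326 kidneys, and S100a6 took 3.20%, 33.6% and 25.8%. Levels were also ordered per kilobase of exon, with the exons of all GENCODE M21 transcripts of a gene joined. These lengths need not be those of the transcripts expressed (1367 bases for S100a6 and 511 for S100a11), so the order is approximate. By CPM alone the PBS median of S100a6 (555) was above that of S100a11 (452). In UNT kidneys the order of median levels was S100g (1909 CPM per kilobase), S100a1 (266), S100a11 (134), S100a10 (63.0), S100a6 (34.2), S100a13 (31.6), S100a4 (9.42), S100a9 (1.21) and S100a8 (0.711). In that order the ranges of S100a6 and S100a13 overlapped, as did those of S100a9 and S100a8, and the other neighbours were apart. In PBS kidneys S100a11 led (884 CPM per kilobase), ahead of S100a6 (406), S100g (400.2), S100a1 (248) and S100a10 (148), each overlapping the next. S100a13 (41.8), S100a4 (18.1), S100a9 (6.97) and S100a8 (4.51) followed; S100a10 and S100a13 did not overlap, whereas the later neighbours did. RGLS4326 kidneys had S100a11 (553 CPM per kilobase), S100g (545), S100a6 (236) and S100a1 (195) with overlapping neighbours, then S100a10 (129), S100a13 (32.2), S100a4 (14.5), S100a9 (4.83) and S100a8 (2.72), where the ranges of S100a9 and S100a8 were the only neighbouring ones to overlap. With the order above kept, most of the PBS overlaps rest on PBS replicate 9. Without it, an alternative chosen after seeing the data, 2 of these 8 pairs overlapped in place of 7, S100a6 with S100g and S100a9 with S100a8. However, S100g (median 397 CPM per kilobase) then ranked above S100a6 (376), which changes the neighbours. In that new order S100a11 (lowest 624) overlapped S100g (highest 636), and S100a6 (lowest 239) overlapped S100a1 (highest 287).

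Genes of transcellular calcium transport were listed beside S100g, and all 11 passed the filter. In PBS versus UNT 3 rose, 7 fell and 1 was not called, and in RGLS4326 versus PBS 4 rose (Calb1, Atp2b4, Vdr and Kl) and 1 fell (Trpv6). Calb1, calbindin-D28k, the larger calcium carrier of the same cells, fell from 655 to 956 CPM in UNT to 116 to 186 CPM in PBS kidneys (log2 fold change -2.41, SE 0.13), a change close in size to that of S100g. In RGLS4326 kidneys Calb1 was at 108 to 306 CPM, 0.32 above PBS on the log2 scale (SE 0.13, edgeR adjusted p = 0.0485). The apical calcium channels went the opposite way: Trpv6 rose from 1.38 to 2.89 CPM in UNT to 29.0 to 67.6 CPM in PBS (log2 fold change 4.21, SE 0.17) and differed by -0.43 with treatment (SE 0.15, edgeR adjusted p = 0.0303). Trpv5 rose by 0.66 (SE 0.10) and was not called with treatment (-0.11, SE 0.10). The treatment calls of this list depended on the fit, with 5 genes called here, 1 when only the PBS and RGLS4326 libraries were fitted and 3 with the replicate number as a block. The partners and receptors gave 7, 4 and 6.

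Regulators of this pathway fell with S100g in cystic kidneys. Vdr, the vitamin D receptor, was at 217 to 291 CPM in UNT, 64.9 to 133 CPM in PBS and 85.9 to 138 CPM in RGLS4326 kidneys, with log2 fold changes of -1.35 (SE 0.09) and 0.24 (SE 0.09, edgeR adjusted p = 0.0366). Kl, which encodes Klotho, changed by -2.35 (SE 0.13) in PBS versus UNT and by 0.43 (SE 0.12, edgeR adjusted p = 0.0103) in RGLS4326 versus PBS, the smallest p of the list in the latter. Pvalb, a calcium buffer of the early distal convoluted tubule, stood at 16.5 to 33.4 CPM in UNT and had a median of 0 CPM in PBS kidneys, where the highest library reached 0.948 CPM. Of the 6 markers of the distal convoluted and connecting tubule, 4 of which are also in the calcium list (Calb1, Trpv5, Slc8a1 and Klk1) together with Pvalb, 1 rose and 5 fell in PBS versus UNT, and their sum was 4019 to 5269 CPM in UNT, 757 to 1175 CPM in PBS and 943 to 1381 CPM in RGLS4326 libraries. The part of this segment in the fall of S100g was not tested.

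**Figure D4:**
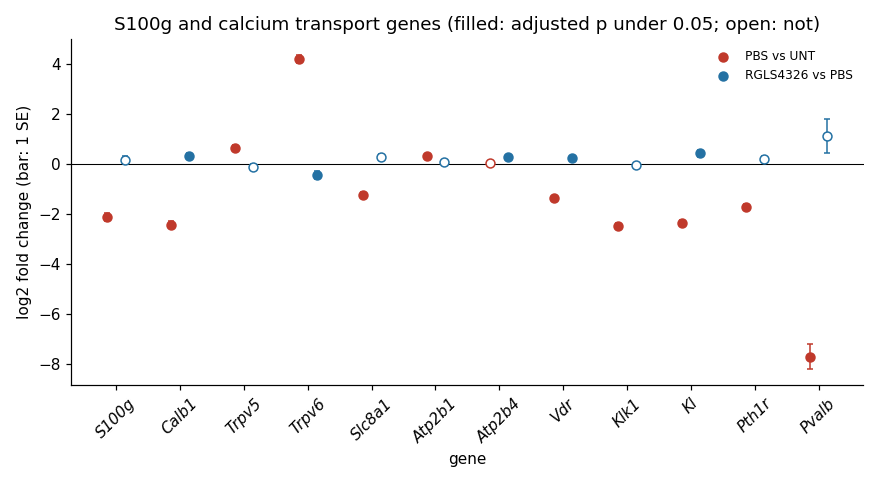
Log2 fold change of S100g and of 11 genes of renal calcium transport in PBS versus UNT and RGLS4326 versus PBS, with bars of 1 SE; filled points passed an edgeR adjusted p of 0.05. S100g at -2.11 lies beside Calb1 at -2.41, and Trpv6 is the highest point at 4.21.

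Other segments moved with the groups as well. The 7 proximal tubule markers summed to 10364 to 13897 CPM in UNT, 719 to 2840 CPM in PBS and 1881 to 3172 CPM in RGLS4326 libraries, with 7 lower in PBS versus UNT and 5 higher in RGLS4326 versus PBS. The 6 collecting duct markers summed to 577 to 940 CPM, 988 to 2425 CPM and 527 to 2148 CPM, with 6 higher in PBS versus UNT and 4 lower in RGLS4326 versus PBS. The 6 markers of injured tubules summed to 1395 to 2771 CPM, 9674 to 16897 CPM and 9421 to 20226 CPM, with 6 higher in PBS versus UNT and 1 (Lcn2) lower in RGLS4326 versus PBS. No marker of any of the 7 cell type lists was at 0 in every library of a group. Their part in the changes of the S100 genes was not tested.

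The treatment differences were examined within the 3 sets. S100a6 differed by -0.64, -0.89 and -1.01 (log2) in sets 1, 2 and 3, S100a11 by -0.48, -0.75 and -0.75, S100a10 by -0.16, -0.52 and -0.38, S100a13 by -0.28, -0.44 and -0.48, and S100a1 by -0.18, -0.47 and -0.53. These members were thus below PBS in each set. S100a4 was more uneven, at -0.20, -0.43 and -1.15, where set 3 holds PBS replicate 9. S100a8 gave -1.15, -0.18 and -1.01, S100a9 -1.23, 0.23 and -1.27, and S100g 0.51, 0.47 and -0.17, so S100a9 changed sign in set 2 and S100g in set 3. A test of the treatment by set interaction called 0 of the 15644 genes (edgeR, 1115 genes at an unadjusted p under 0.05); S100a4 had the smallest p of the members (p = 0.0242, edgeR adjusted p = 0.664).

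The calls differed between the sets, each fitted alone with 3 or 4 mice a group. In set 2, where edgeR called 25.6% of the tested genes in either direction, 5 members were lower (S100a1, S100a6, S100a10, S100a11 and S100a13) and S100g was higher (edgeR adjusted p = 0.0459). In set 1, where 0.203% of the genes were called, and in set 3, where 0% were, edgeR called 0 members, with 6 and 5 members at an unadjusted p under 0.05. Set 2 is also the set in which reads in no gene were separate, at 11.3 to 12.0% of the RGLS4326 and 5.49 to 8.995% of the PBS libraries. With that share as a covariate, edgeR called 0.594% of the tested genes and 0 members in RGLS4326 versus PBS (6 at an unadjusted p under 0.05). The differences were then -0.48 for S100a6 (p = 0.00116, edgeR adjusted p = 0.0789), -0.39 for S100a11 (p = 0.00103, edgeR adjusted p = 0.0765), -0.49 for S100a4, -0.22 for S100a13, -0.17 for S100a1 and -0.17 for S100a10. In the same fit 0 of the 15 partners and receptors, 0 of the 11 calcium transport genes and 0 of the 4 other tested S100 genes were called, with 6, 3 and 2 at an unadjusted p under 0.05. What sets the share of reads in no gene, and its part in the treatment differences, was not tested.

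**Figure D5:**
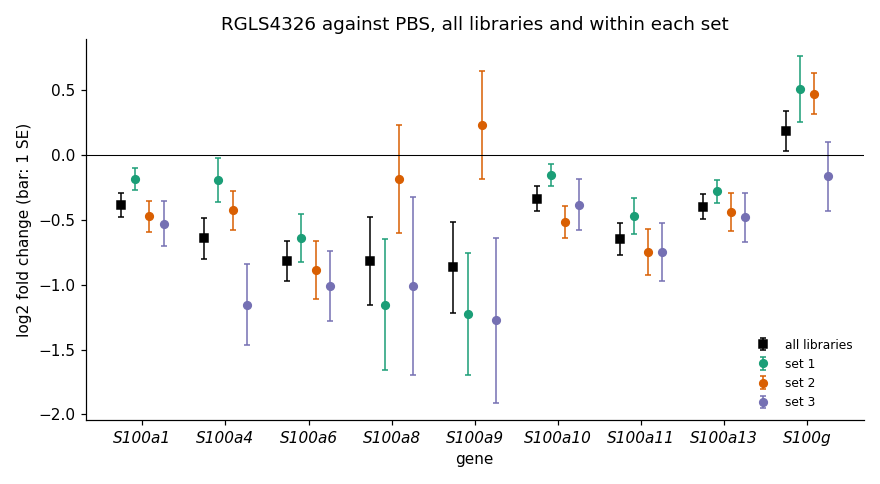
Log2 fold change of the 9 S100 genes in RGLS4326 versus PBS, from all libraries and within sets 1, 2 and 3, with bars of 1 SE. S100a1, S100a4, S100a6, S100a10, S100a11 and S100a13 lie below 0 in all 3 sets, whereas S100a9 is at 0.23 in set 2 and S100g at -0.17 in set 3.

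Among the other S100 genes of the tables, 2 followed the rising members, S100a14 and S100a16. The rest had at most 1000 reads over the 34 libraries (S100b), against 2108 for S100a8. In UNT kidneys, however, S100b (435 reads) was above S100a8 (240) and S100a9 (356). Of 9 listed genes, 4 passed the filter, of which 2 rose and 1 fell in PBS versus UNT, and 2 fell in RGLS4326 versus PBS. S100a14, an epithelial S100 protein, had the smallest p in both comparisons and a larger disease change than any of the 9 members, from 1.122 to 2.93 CPM in UNT to 46.8 to 126 CPM in PBS and 25.1 to 82.1 CPM in RGLS4326 kidneys. Its log2 fold changes were 5.14 (SE 0.23) and -0.87 (SE 0.19, edgeR adjusted p = 0.00314). S100a16, a widely expressed S100 protein, rose by 1.15 (SE 0.11) and differed by -0.44 with treatment (SE 0.11, edgeR adjusted p = 0.00503). S100a7a was lower in PBS versus UNT (-0.80, SE 0.29, edgeR adjusted p = 0.0125) and S100b, the astrocyte and glial S100 protein, was not called (-0.34, SE 0.23). S100a2, S100a3, S100a5 and S100z had at most 16 reads in a library, and S100a7l2 had 0 reads in all 34.

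Relations between the levels of members were counted over all pairs. Of the 36 pairs, 18 in UNT, 15 in PBS and 11 in RGLS4326 kidneys passed an adjusted permutation p of 0.05 for r, all with positive r. By Spearman's rho, a measure chosen for this count after seeing the data, 6, 8 and 10 pairs passed, so the order of the groups depends on the measure. Of the pairs that passed by r, 5 in UNT, 4 in PBS and 0 in RGLS4326 kidneys had r under 0.5 without the 2 farthest mice. S100a6 and S100a11 had the highest r in PBS kidneys, 0.973, with rho at 0.955 (permutation p = 1e-05 for each, the smallest these permutations can give, adjusted p = 0.00054 for each), and r at 0.946 without 2 mice. In RGLS4326 kidneys their r was 0.928 and rho 0.936 (permutation p = 4e-05 and 9e-05, adjusted p = 0.00072 and 0.00243), and r was 0.883 without 2 mice. The 4 RGLS4326 mice with most reads in no gene (11.3 to 12.0%, against at most 8.92% in the others), 3 of them from set 2, were the 4 lowest treated mice for S100a6 and S100a11, as for S100a1 and S100a10, and the permutations did not take this into account. With set means removed r of S100a6 and S100a11 was 0.932 in RGLS4326 kidneys. In UNT kidneys r was 0.766 and rho 0.643 (permutation p = 0.00415 and 0.0286, adjusted p = 0.0155 and 0.0908), and r was 0.397 without 2 mice, so that value rests on those mice. S100g passed with 7 of the other 8 members by r in UNT kidneys, with r from 0.53 to 0.83 over the 8, but with 3 by rho (S100a1, S100a4 and S100a11), and by either measure with 0 of them in PBS (r from 0.090 to 0.53) and in RGLS4326 kidneys (r from -0.53 to 0.49). Whether these relations differ between groups was not tested.

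As a description, the tested genes most like each member were taken by Pearson's r of log2(CPM + 1) over the 34 libraries after removing group means. S100a8 and S100a9 were each other's nearest gene (r = 0.944), followed for both by Cxcr2, a chemokine receptor of neutrophils (r = 0.833 and 0.872). S100a6 was nearest to Krt18, a keratin of simple epithelia (0.945), and 2210016L21Rik (0.941), and S100a11 to Clic1, an intracellular chloride channel (0.965), and Sh3bgrl3 (0.959). S100a10 was nearest to Cstb, an inhibitor of cathepsins (0.865), and Erp29, a chaperone of the endoplasmic reticulum (0.855). S100a4 lay nearest to Tmsb4x, an actin-binding thymosin (0.872), and Snrpg, a spliceosomal protein (0.856), S100a1 to Prdx2, a peroxiredoxin (0.957), and Rpl19, a ribosomal protein (0.957), and S100a13 to Psme2, a proteasome activator subunit (0.929), and Trim27 (0.920). S100g had the least similar neighbours, Chchd7 (0.774) and Oard1 (0.726). Without PBS replicate 9, left out after seeing the data, r of S100a4 fell most, to 0.752 with Tmsb4x and 0.692 with Snrpg, and the values of S100g were 0.718 and 0.654.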

How the data were processed

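Kidney RNA of 34 mice was profiled by the authors with stranded mRNA libraries, whose reads were trimmed with Trim Galore, aligned with STAR to GRCm38 (mm10) and counted with HTSeq (version 0.6.1 in the submitters' processing notes, which also name FastQC 0.11.2, Picard 1.119 and SAMtools 1.1). The deposited values were raw counts per gene symbol, 1 table per mouse, neither normalized nor pooled. The annotation and strand setting of the counting are not given in the sources used here, so genes with shared exons are uncertain. Rows that name no gene stayed out of library sizes.

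Groups came from the labels, and no 2 libraries were identical (0 pairs). Nothing in the labels ties mice to litters, so p-values measure the spread between these mice. Counts were scaled by trimmed mean of M values (TMM) factors, filtered with filterByExpr (minimum count 10) and fitted with edgeR 4.0.16 (R 4.3.3), robust quasi-likelihood, 3 groups, no covariate. Tests were two-sided. SE is the absolute log2 fold change over the square root of the F statistic, and the 95% interval uses the normal quantile. Relations between members used 100000 permutations and Benjamini-Hochberg adjustment over 108 relations, for r and rho separately. The fit was also run on simulated counts. These were drawn without effects of sets, of reads in no gene or of an outlying mouse, so that run says nothing about them. Alternatives were DESeq2 1.42.0, other scalings, no filter, covariates, the replicate block, fits within sets and leaving out each library.

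The members and gene lists (partners and receptors, calcium transport, other S100 genes, 7 cell type lists) were chosen with earlier results of these data known. Named were all members, the genes with the smallest p of a list in the disease and treatment comparison, partners or receptors of members, and the 2 genes most like each member; other names give the genes behind a count of 5 or fewer or a marker too low to test, and were chosen after their values were seen. Symbols were matched to GENCODE M21 and RefSeq (GRCm38.p6); Adgre1 and S100a7l2 were found under older symbols, and Ly6g was not analysed here. Figures used matplotlib 3.10.9 in Python 3.11.15.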

Additional observations from a re-analysis of the deposited data

How the results depend on the processing

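The disease calls of the S100 genes depended little on the processing, and the treatment calls more. In PBS versus UNT 8 members were called under 11 of the 12 alternatives (with reads in no gene as a covariate S100a1 in place of S100a13) and 7 within set 2. In RGLS4326 versus PBS 6 were called, and also under 7 alternatives (within set 2 with S100g in place of S100a4); 7 with 2 groups only and with DESeq2, which add S100a8 (adjusted p = 0.0471 and 0.0479); and 0 with reads in no gene as a covariate, within set 1 and within set 3. In RGLS4326 versus UNT 8 were called, except for 4 within set 3. Leaving out 1 library gave 8 in PBS versus UNT, 6 to 8 in RGLS4326 versus PBS and 8 in RGLS4326 versus UNT. The cause of these differences was not tested.

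Over all genes, RGLS4326 versus PBS called 5266 of 15644 by edgeR (7252 at an unadjusted p under 0.05), but 93 with reads in no gene as a covariate (3195), 32 within set 1 (3384), 4081 within set 2 (6349) and 0 within set 3 (2825).

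Signs reversed for values that were not called: S100a1 in PBS versus UNT (0.00085 with upper-quartile factors, 0.24 within set 3, and -0.136 to 0.0261 leaving out 1 library), S100a9 in RGLS4326 versus PBS (0.23 within set 2), S100g there (-0.17 within set 3), and S100a13 in RGLS4326 versus UNT (-0.038 with reads in no gene as a covariate, -0.13 within set 2).

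Replicate numbers did not pair the mice: same-numbered mice of different groups had correlations of -0.415 to 0.454, of which 10 of 33 were over 0.1, and 5 of 33 mice correlated best with their own number. With the replicate block 8, 6 and 8 members were called in the 3 comparisons, and 5089 genes in RGLS4326 versus PBS.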

Other observations

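The coefficient of variation among mice was highest in PBS kidneys for 7 of the 9 S100 genes, and in UNT kidneys for S100a8 and S100a9. Without PBS replicate 9, left out after seeing the data, it was highest in PBS for 5, and in RGLS4326 kidneys for S100a1 and S100a10. The coefficient of variation of S100a4 was 20.6% in UNT, 47.8% in PBS and 15.1% in RGLS4326 kidneys, that of S100a6 17.9%, 34.7% and 25.0%, and that of S100a9 83.7%, 83.5% and 33.8%. The PBS values without replicate 9 were 23.0% for S100a4, 28.1% for S100a6 and 58.0% for S100a9. PBS replicate 9, with 29.7 CPM of S100a4 and 986 CPM of S100a6, also had the lowest Pkd2 of the PBS mice (98.0 CPM, against 140 to 215 CPM in the others) and the highest summed neutrophil markers (40.5 CPM, against at most 36.1 CPM). Of these markers Csf3r (17.4 CPM), Il1r2, Cxcr2, Mmp8 and Elane were highest in that mouse. In contrast, Retnlg, Mpo, Ngp, Camp, Ltf and Mmp9 were higher in another PBS mouse.

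Y-linked transcripts, taken as Ddx3y over 1 CPM, were found in 6 UNT, 6 PBS and 5 RGLS4326 mice. In PBS kidneys S100a8 had a median of 4.13 CPM in the 6 libraries with it and 1.54 CPM in the 5 without, with overlapping ranges (0.817 to 7.63 CPM and 1.09 to 3.87 CPM), and S100g had 203 and 189 CPM. The S100a8 medians with and without these transcripts were 0.402 and 0.558 CPM in UNT and 1.99 and 1.78 CPM in RGLS4326 kidneys, so the direction in PBS was not that in UNT. In RGLS4326 kidneys the 6 members called with treatment had lower medians with these transcripts, with overlapping ranges. Medians with and without them were 262 and 346 CPM for S100a6 and 262 and 331 CPM for S100a11. In PBS kidneys these were 639 and 474 CPM, and 487 and 410 CPM. All 3 RGLS4326 mice of set 2 had these transcripts and 11.3 to 12.0% of reads in no gene. With these transcripts as a covariate, 6 members were still called in RGLS4326 versus PBS. The differences by Y-linked transcripts were not tested.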
